A study of Mus musculus with 8 samples.

Results

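The genes described here are 10 immediate early genes, Fos, Fosb, Jun, Junb, Jund, Egr1, Atf3, Ier2, Dusp1 and Klf6, taken by their symbols from the 21848 genes measured by single-cell RNA sequencing (scRNA-seq) of the cortical lesion 6 days after photothrombosis (PT). All 10 symbols were found. Their transcripts were counted as unique molecular identifiers (UMIs) in 46216 cells, which were droplets with at least 2000 UMIs of which less than 20% were mitochondrial. In PT, light shone through the skull activates an injected dye, Rose Bengal, and clots the vessels below, here in the right sensorimotor cortex. The samples were 8 adult mice with 1 library each, 4 given saline and 4 given ancrod at 2.4 U per day from subcutaneous pumps implanted 2 days before PT. Ancrod, a snake venom protease, depletes fibrinogen from the blood. All 8 mice carried the lesion, and each library also held spared tissue that was cut out around it, so levels in the lesion and beside it cannot be told apart. No mouse without a lesion is analysed here. The labels give 1 strain, C57Bl/6J, while the methods name C57BL/6N, and both groups came from adult females by the labels. Replicates 1 to 3 of each group belong to batch 1 of injury and sequencing and replicate 4 of each to batch 2.

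Immediate early genes are transcribed within minutes of a stimulus, without new protein synthesis, because their promoters and the factors that act on them stand ready in the resting cell. FOS family proteins pair with JUN family proteins to form the transcription factor AP-1, EGR1 and KLF6 are zinc finger transcription factors, and ATF3 is a stress-induced factor of the ATF/CREB family. IER2 is a small nuclear protein, and DUSP1 is a phosphatase that switches off the MAP kinases whose activity induces many of these genes. In brain they are known as markers of neuronal activity, and they are also known to rise in many cell types while tissue is dissociated with warm enzymes, so that a level measured after dissociation holds both the state in the animal and the response to handling. Here the tissue was dissociated with a kit of neural tissue enzymes by its maker's guidelines, with trituration during digestion. The methods give no temperature for the digestion itself, so cold digestion cannot be read from them. By the methods the handling was otherwise cold except where stated, and a spin and the lysis of red blood cells were at room temperature. Myelin was removed with beads, and no cell sort is named. No undissociated sample was analysed, so the part of dissociation in every level given here was not tested.

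As gene models the members are compact. Their median span on GRCm39, the build of the count tables, was 4710.5 bases (1524 to 56539) against 19300.5 bases for 21616 protein-coding genes, and their median number of exons was 3 against 7. Jun (chr4:94937271-94940459, minus strand), Junb (chr8:85701113-85705359, minus), Jund (chr8:71151599-71153265, plus) and Ier2 (chr8:85387960-85389483, minus) had 1 exon each. Fos (chr12:85520658-85524047, plus), Fosb (chr7:19036621-19043976, minus), Atf3 (chr1:190902493-190950241, minus), Dusp1 (chr17:26724564-26781102, minus) and Klf6 (chr13:5911481-5920393, plus) had 4. The counts are of 3′ ends, so levels are compared below between cells for 1 gene and not between genes.

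Start site windows of 250 bases before to 50 bases after the annotated start were taken from the RefSeq promoter table of build GRCm38.p6. Windows of 8 of the 10 members were read, all but Egr1 and Ier2. Those of Fos, Junb and Dusp1 are shown because they hold more than 1 of the elements in capitals, and that of Jun because it holds none of them. Those of Atf3 and Fosb, which hold the core TGACG alone of these elements, are not shown. Capitals mark the core of the cyclic AMP response element (TGACG), the full palindrome (TGACGTCA, which contains the core on both strands) and the TATA box (TATAAA), each on the strand shown.
Fos, chr12:85473640-85473939, plus strand: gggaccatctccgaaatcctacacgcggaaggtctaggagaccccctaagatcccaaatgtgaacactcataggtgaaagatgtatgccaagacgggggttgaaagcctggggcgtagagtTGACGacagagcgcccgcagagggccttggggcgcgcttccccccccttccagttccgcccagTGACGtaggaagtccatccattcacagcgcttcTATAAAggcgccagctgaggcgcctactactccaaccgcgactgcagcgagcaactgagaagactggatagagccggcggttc
Junb, chr8:84978699-84978998, minus strand: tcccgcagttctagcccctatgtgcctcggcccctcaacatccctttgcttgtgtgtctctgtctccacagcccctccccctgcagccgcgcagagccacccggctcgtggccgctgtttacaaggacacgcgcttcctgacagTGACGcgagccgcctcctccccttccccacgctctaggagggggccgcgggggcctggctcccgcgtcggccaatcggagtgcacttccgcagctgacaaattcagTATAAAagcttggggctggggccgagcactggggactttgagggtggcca
Dusp1, chr17:26508423-26508722, minus strand: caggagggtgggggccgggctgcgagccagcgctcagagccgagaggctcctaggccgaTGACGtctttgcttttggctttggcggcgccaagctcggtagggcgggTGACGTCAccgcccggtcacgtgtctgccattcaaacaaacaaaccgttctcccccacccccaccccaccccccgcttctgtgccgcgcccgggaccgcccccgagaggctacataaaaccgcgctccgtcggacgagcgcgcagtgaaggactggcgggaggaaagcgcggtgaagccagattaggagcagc
Jun, chr4:95052173-95052472, minus strand: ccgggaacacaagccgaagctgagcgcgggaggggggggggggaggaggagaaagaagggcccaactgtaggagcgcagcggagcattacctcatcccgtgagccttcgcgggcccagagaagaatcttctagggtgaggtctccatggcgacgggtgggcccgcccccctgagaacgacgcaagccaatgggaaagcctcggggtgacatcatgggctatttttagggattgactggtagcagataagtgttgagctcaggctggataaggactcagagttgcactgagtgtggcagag
With both strands searched, TGACG was present in 5 of the 8 windows (Atf3, Fosb, Junb, Fos and Dusp1), against 20.8% of 32851 promoters of the same length. The palindrome TGACGTCA was found in 1 (Dusp1, from base -143), against 1.79% of all promoters, and TATAAA in 2 (Fos from base -33, Junb from base 1) against 13.6%. The GC box GGGCGG was in 6 windows against 35.7%, and the CCAAT box (CCAAT) was in 4 against 37.4%. Neither the AP-1 element TGANTCA (7.81% of all promoters) nor the CArG box of the serum response element (1.63%) was in any of the 8 windows. These are matches of letters and not sites of binding.

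Levels were measured in 15 cell classes with at least 10 cells in every mouse. Clusters, made without the members and without 3 lists of related genes (76 genes in all left out), were named from marker genes and carry "-like". Microglia-like cells were the largest class with 16535 cells, followed by endothelial-like (7093) and astrocyte-like cells (3602), and a macrophage cluster whose naming markers were mixed (2515 cells) is called by its leading genes, the Gpnmb Lyz2 cluster. The smallest classes were OPC-like cells (241, oligodendrocyte progenitors), of which 46.9% scored as doublets, and smooth muscle-like cells (228), while 18.6% of 596 neuron-like cells scored as doublets. The libraries held 97861434 to 142139441 UMIs each, fewer in the 4 saline (97861434 to 122758649) than in the 4 ancrod mice (126682918 to 142139441), with medians of 10653 to 17575 UMIs per cell. Of 45940 distinct cell barcodes, 274 occurred in more than 1 library. Levels are given as CPM, counts scaled to the same total for each class and mouse, of the UMIs summed over the cells of a class in 1 mouse.

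Immediate early transcripts were measured in every class, and smooth muscle-like, endothelial-like, fibroblast-like and resident macrophage classes held more of them than neuron-like and astrocyte-like cells in every mouse. The 10 members summed to 17681 ± 2588 CPM in smooth muscle-like cells (SD, n = 8 mice), the contractile cells of arterioles, and to 14764 ± 3246 CPM in endothelial-like cells. Fibroblast-like (9792 ± 1826 CPM), microglia-like (9674 ± 941 CPM) and border-associated macrophage-like cells (9431 ± 1524 CPM) followed. Pericyte-like (4973 ± 2009 CPM) and OPC-like cells (4808 ± 828 CPM) lay in the middle of the order. The lowest sums were those of neuron-like (1754 ± 715 CPM) and astrocyte-like cells (1346 ± 495 CPM). Microglia-like cells ranged only from 8363 to 10911 CPM over the 8 mice, whereas in endothelial-like cells saline 1 (9489 CPM) and saline 4 (11141 CPM) lay below the other mice (12844 to 18203 CPM).

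**Figure D1:**
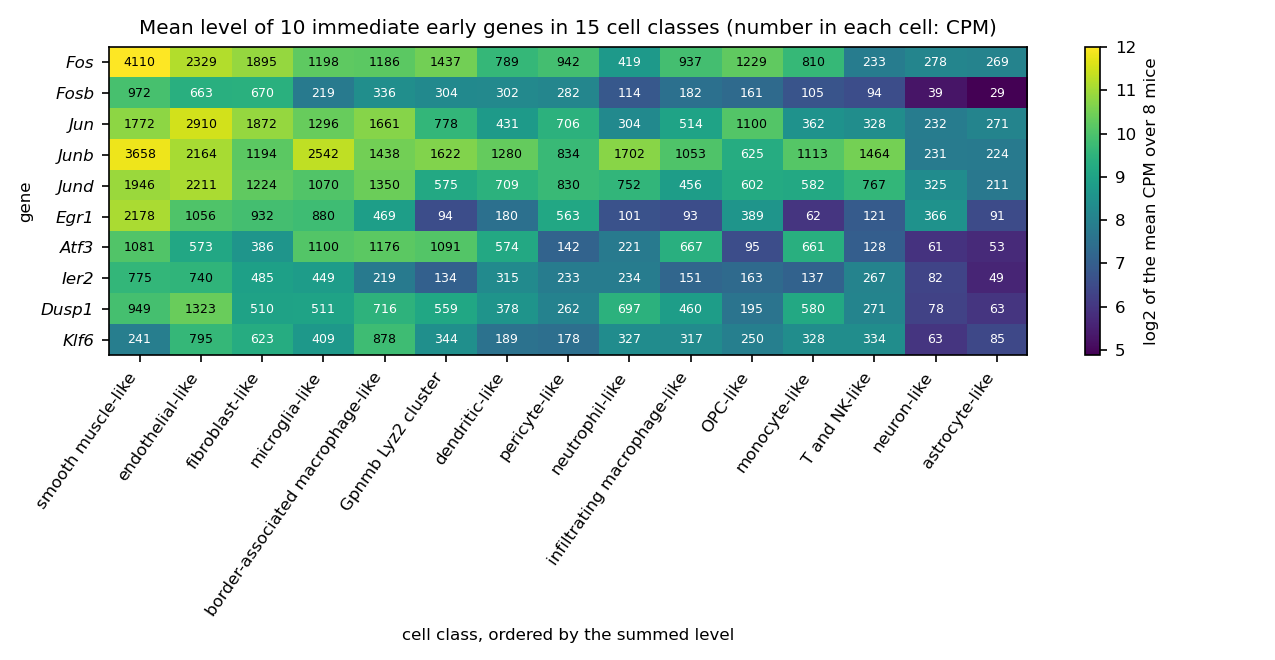
Mean level of each gene in each cell class, as log2 of the mean CPM over 8 mice (colour) with the mean CPM printed in each field; classes run from the highest summed level on the left to the lowest on the right. Smooth muscle-like cells hold the highest Fos (4110 CPM) and Egr1 (2178 CPM), and the 2 classes on the right, neuron-like and astrocyte-like, have the lowest sums, with Egr1 of neuron-like cells at 366 CPM.

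Among the FOS family, Fos, the founding AP-1 partner, was highest in smooth muscle-like cells, from 3541 CPM in the lowest mouse over a median of 3863 to 5394 CPM in the highest. Endothelial-like cells held 1233 to 3068 CPM (median 2469) and fibroblast-like cells 1203 to 2396 CPM (median 1904). The middle of the order was flat: the Gpnmb Lyz2 cluster, OPC-like, microglia-like and border-associated macrophage-like cells had means between 1186 and 1437 CPM. T and NK-like cells were lowest at 158 to 291 CPM (median 231), and the mean of smooth muscle-like cells was 17.6 times theirs. Of the 14 steps between neighbouring classes in this order none passed the exact sign-flip permutation test within mice after adjustment over the 14 steps (smallest adjusted p = 0.0547, among others for smooth muscle-like over endothelial-like cells, higher in 8 of 8 mice). Fosb, a close relative of Fos, followed a like order, with 714 to 1523 CPM in smooth muscle-like cells, 422 to 825 CPM in fibroblast-like cells and 18.1 to 45.7 CPM in astrocyte-like cells.

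Of the JUN family, Jun was highest in endothelial-like cells (2206 to 3602 CPM, median 3016). It was lower in fibroblast-like cells (1144 to 2331 CPM, median 1877) in 8 of 8 mice, a step told apart from its neighbour by the exact sign-flip permutation test (p = 0.00781, the smallest that 8 mice allow, adjusted p = 0.0365). Microglia-like cells held more Jun than OPC-like cells (1296 against 1100 CPM) and OPC-like cells more than the Gpnmb Lyz2 cluster (778 CPM), each in 8 of 8 mice with the same adjusted p of the exact test, while neuron-like cells were lowest (232 CPM). Junb, an AP-1 gene also induced in activated leukocytes, was highest in smooth muscle-like (2676 to 4535 CPM) and microglia-like cells (2212 to 2940 CPM), and, unlike Fos, it was also high in T and NK-like (1225 to 1737 CPM) and neutrophil-like cells (1225 to 2531 CPM). Jund, the JUN gene known for its steady expression, had the smallest span, from 2211 CPM in endothelial-like to 211 CPM in astrocyte-like cells, a ratio of 10.5. For Jund 3 steps were told apart with an adjusted p of 0.0365 in the exact test: smooth muscle-like over border-associated macrophage-like (1946 against 1350 CPM), microglia-like over pericyte-like (1070 against 830 CPM) and the Gpnmb Lyz2 cluster over infiltrating macrophage-like cells (575 against 456 CPM).

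Egr1 had the steepest gradient of the 10 genes, with a ratio of 34.9 between smooth muscle-like cells (1662 to 2886 CPM, median 2150) and monocyte-like cells (38.1 to 111 CPM, median 57.2). Endothelial-like cells held 468 to 1454 CPM (median 1106), fibroblast-like cells 646 to 1173 CPM (median 935) and microglia-like cells 667 to 1350 CPM (median 848). Among macrophages and their relatives the gene divided the classes sharply. Border-associated macrophage-like cells held 469 CPM on average, less than microglia-like cells of the same mouse in 8 of 8 mice. The Gpnmb Lyz2 cluster (75.5 to 124 CPM), infiltrating macrophage-like (45.5 to 126 CPM) and monocyte-like cells had lower means still, and lay below every microglia-like value. Atf3 did not divide them in this way: its means were 1176 CPM in border-associated macrophage-like, 1100 CPM in microglia-like and 1091 CPM in the Gpnmb Lyz2 cluster, 667 CPM in infiltrating macrophage-like and 661 CPM in monocyte-like cells. Neural cells were lowest in Atf3, with 52.6 CPM in astrocyte-like and 60.8 CPM in neuron-like cells. Neuron-like cells stood eighth of the 15 classes for Egr1 at 366 CPM, with 837 CPM in saline 1 and 197 to 452 CPM in the other 7 mice.

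Ier2 was highest in smooth muscle-like (477 to 1115 CPM) and endothelial-like cells (490 to 871 CPM) and lowest in astrocyte-like cells (26.6 to 82.7 CPM). Dusp1, the MAP kinase phosphatase, was highest in endothelial-like cells (941 to 1675 CPM, median 1380), and neutrophil-like (697 CPM) and monocyte-like cells (580 CPM) were not told apart from microglia-like cells (511 CPM), with adjusted p of 0.164 and 0.496 in the exact test. Klf6, known from the response of vessels to injury, was led by border-associated macrophage-like (474 to 1138 CPM), endothelial-like (676 to 976 CPM) and fibroblast-like cells (375 to 748 CPM). For Klf6 endothelial-like cells were told apart from fibroblast-like cells (795 against 623 CPM), fibroblast-like from microglia-like cells (623 against 409 CPM) and pericyte-like from astrocyte-like cells (178 against 85.1 CPM), with adjusted p = 0.0365 in the exact test. Smooth muscle-like cells, at the top for 5 other members, held only 241 CPM of Klf6, which placed them eleventh of 15. Over the 10 genes, 9 of 140 neighbouring steps were told apart. Other genes were not tested in this way, so the count has no share of all genes beside it. With 8 mice the smallest p is 0.00781, so whether a step passed the adjustment over 14 steps depended on how many steps of its gene were that low. Steps of Fos, Fosb and Egr1 at this p, each in 8 of 8 mice, had an adjusted p of 0.0547 (exact test). Too few steps of these genes were that low for any to pass. A step that did not pass is not shown to be equal. Without 1 mouse the test cannot go below 0.0156, and the count was then 0 to 5.

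**Figure D2:**
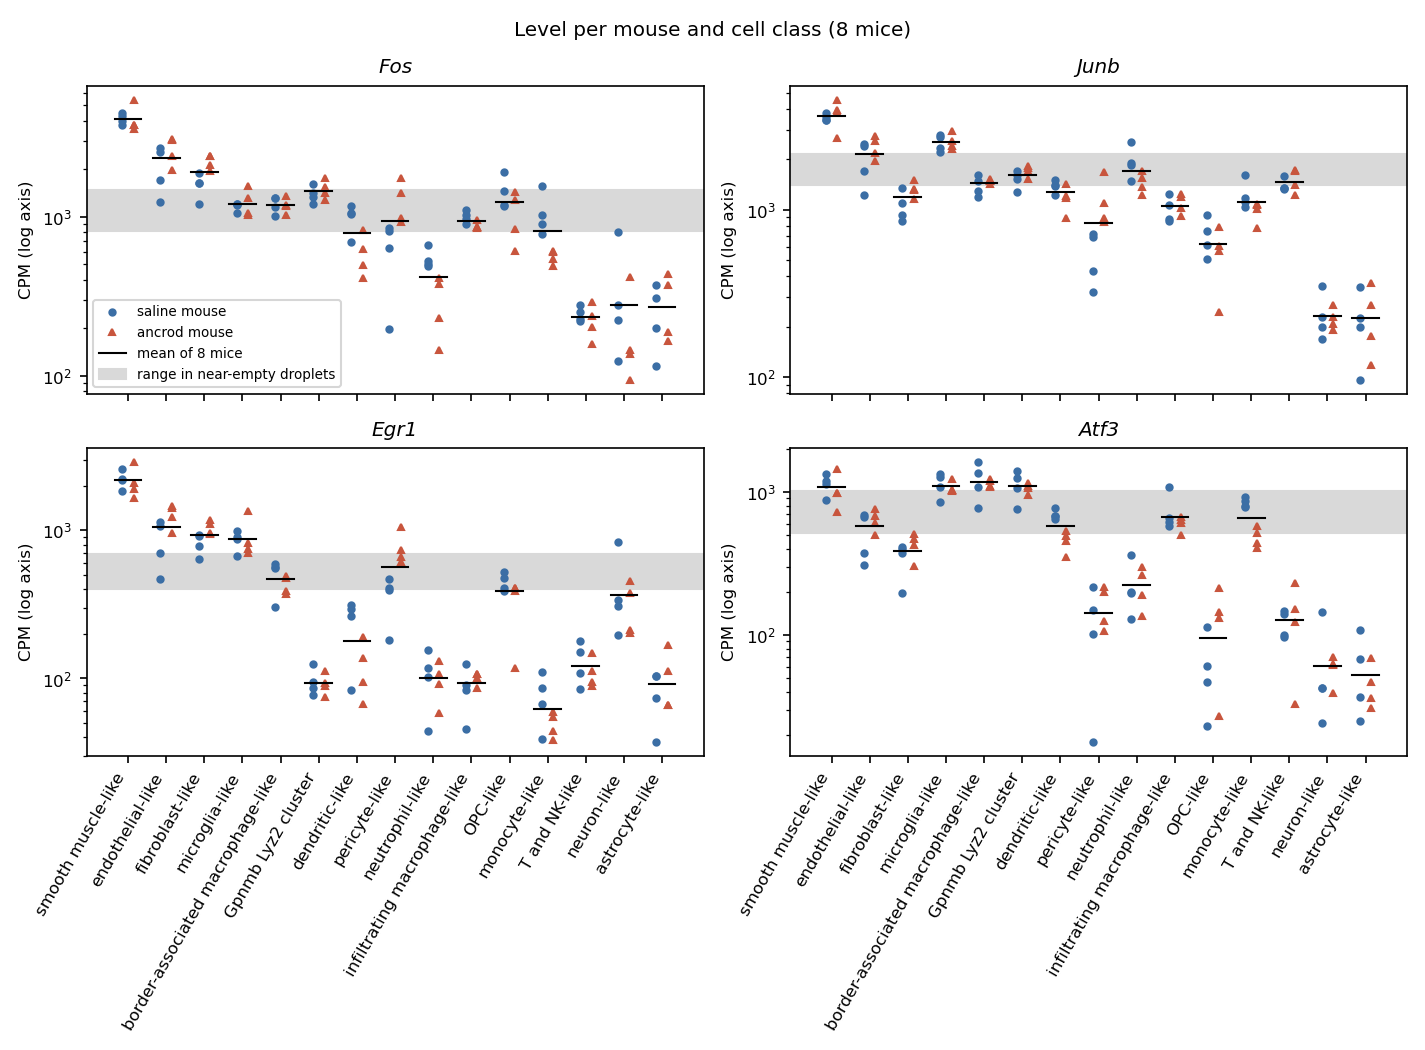
Level of Fos, Junb, Egr1 and Atf3 in each of the 15 classes, in CPM on a log axis; each point is 1 mouse (circles saline, triangles ancrod), each bar the mean of 8 mice, and the grey band the range of the same gene in near-empty droplets of the 8 libraries. Egr1 of microglia-like cells (667 to 1350 CPM) lies above every value of the Gpnmb Lyz2 cluster, infiltrating macrophage-like and monocyte-like cells (38.1 to 126 CPM), while Atf3 of microglia-like cells and the Gpnmb Lyz2 cluster overlaps.

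Microglia-like cells were set against each of the 14 other classes within mice, a comparison added after the levels had been seen. Of 140 pairs of gene and class, 123 were told apart by the exact sign-flip permutation test with adjustment over the 14 classes of a gene. Only the members were tested in this way, so no share of all genes stands beside this count or those below. They are therefore not read as particular to these genes. Junb was higher in microglia-like cells than in 13 classes and lower than in smooth muscle-like cells alone (2542 against 3658 CPM, lower in 8 of 8 mice). Atf3 was higher than in 11 classes and lower than in none, and 3 classes were not told apart: the Gpnmb Lyz2 cluster (log2 difference 0.02 ± 0.17, SD over 8 mice), border-associated macrophage-like (-0.08 ± 0.17) and smooth muscle-like cells (0.04 ± 0.22). Egr1 was higher than in 11 classes. It exceeded the Gpnmb Lyz2 cluster by 3.20 ± 0.37 on the log2 scale, infiltrating macrophage-like cells by 3.24 ± 0.61 and monocyte-like cells by 3.85 ± 0.63, each in 8 of 8 mice (exact adjusted p = 0.00994). It was lower than in smooth muscle-like cells (-1.32 ± 0.33), and endothelial-like (-0.21 ± 0.56, exact adjusted p = 0.320) and fibroblast-like cells (-0.10 ± 0.40, 0.484) were not told apart. Fosb was higher than in 7 classes and lower than in 6, the most of any member. At least 20656 Egr1 UMIs per mouse lay behind the microglia-like levels and at least 24 behind those of monocyte-like cells.

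Free RNA was read from near-empty droplets with at most 100 UMIs, in which the members summed to 5846 to 8820 CPM per library. Fos averaged 1130 CPM there and Egr1 493 CPM, and for Junb (1797 CPM) and Ier2 (468 CPM) 12 of the 15 class means lay below the free RNA level. Egr1 stood at 4.42 times the free RNA level in smooth muscle-like and at 0.127 times in monocyte-like cells. The part of free RNA in levels near that of the pool was not tested.

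The members differed in which classes they shared. Over the 15 class means (log2 scale, all classes drawn from the same 8 libraries) Jund and Ier2 had a Pearson r of 0.942, Fos and Fosb 0.924, and Junb and Dusp1 0.921, whereas Egr1 and Atf3 had 0.229 and Egr1 and Junb 0.371. Among 4142 other genes with at least 50 CPM, the profiles nearest to Fos were Leprot (r = 0.866) and Clic4 (0.852). Those nearest to Fosb were Clic4 (0.890) and Rassf1 (0.840), and to Jun Leprot (0.886) and Clic4 (0.803). Nearest to Junb were Ccnl1 (0.930) and Ppp1r15a (0.925), the latter a gene of the stress response that restarts translation. Nearest to Jund were Rlim (0.921) and Ppp1r15a (0.912), and nearest to Ier2 the same genes (0.947 and 0.906). Nearest to Egr1 were Wtip (0.880) and Adamts1 (0.843), to Atf3 Ifrd1 (0.899) and Eif1a (0.885), to Dusp1 Bnip2 (0.916) and Sertad1 (0.903), and to Klf6 Tmem234 (0.821) and Sqstm1 (0.819). These correlations describe 15 points and carry no test.

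Single cells were thinned to 2000 UMIs each, so that depth did not set how many members were seen. A smooth muscle-like cell then held 7.18 of the 10 members on average, an endothelial-like cell 6.68 and a microglia-like cell 6.32, against 2.62 in pericyte-like, 1.74 in neuron-like and 1.17 in astrocyte-like cells. At least 3 members were present in 96.2% of microglia-like cells (94.1% to 97.7% over mice), and none in 40.4% of astrocyte-like cells (30.2% to 44.8%). Fos itself was detected in 73.5% of microglia-like cells (69.0% to 82.3%), 72.3% of endothelial-like (50.9% to 85.5%), 27.2% of pericyte-like (9.88% to 41.9%) and 17.7% of astrocyte-like cells (11.3% to 25.8%). Free RNA reaches all droplets of a library, and a share at or below the 17.7% of astrocyte-like cells cannot be told apart from it. That share is a cautious bound and not a measure of free RNA. One astrocyte-like cluster (270 cells) held 694 CPM of Fos, against 89.1 to 169 CPM in the other astrocyte-like clusters. The pericyte-like share lay at or below 17.7% in saline 1 (16.2%) and saline 4 (9.88%), and above the astrocyte-like share of the same mouse in 7 of 8 mice, all but saline 4.

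Within endothelial-like and microglia-like cells the other members were detected more often in cells with a Fos UMI. Egr1 was detected in 61.4% of endothelial-like cells with a Fos UMI against 15.8% of those without, and Fosb in 57.3% against 16.3%, in the same direction in 8 of 8 mice. In pericyte-like cells Egr1 was detected in 59.0% against 11.02% and Jun in 60.5% against 14.5%. In saline 1 and saline 4 the Fos share of this class lay at or below the mean astrocyte-like share. By that bound its Fos UMIs cannot be told apart from free RNA there, and by the astrocyte-like share of the same mouse in saline 4 alone. Both mice are part of these means. In microglia-like cells the shares lay closer together, with Egr1 in 65.5% against 45.6% and Junb in 96.3% against 87.6% (8 of 8 mice). In astrocyte-like cells Egr1 was present in 20.8% of cells with a Fos UMI and in 3.47% of the others, but a Fos UMI in this class cannot be told apart from free RNA, so these shares are not read as expression in the same cells. Cells were not treated as replicates, and these shares carry no test.

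**Figure D3:**
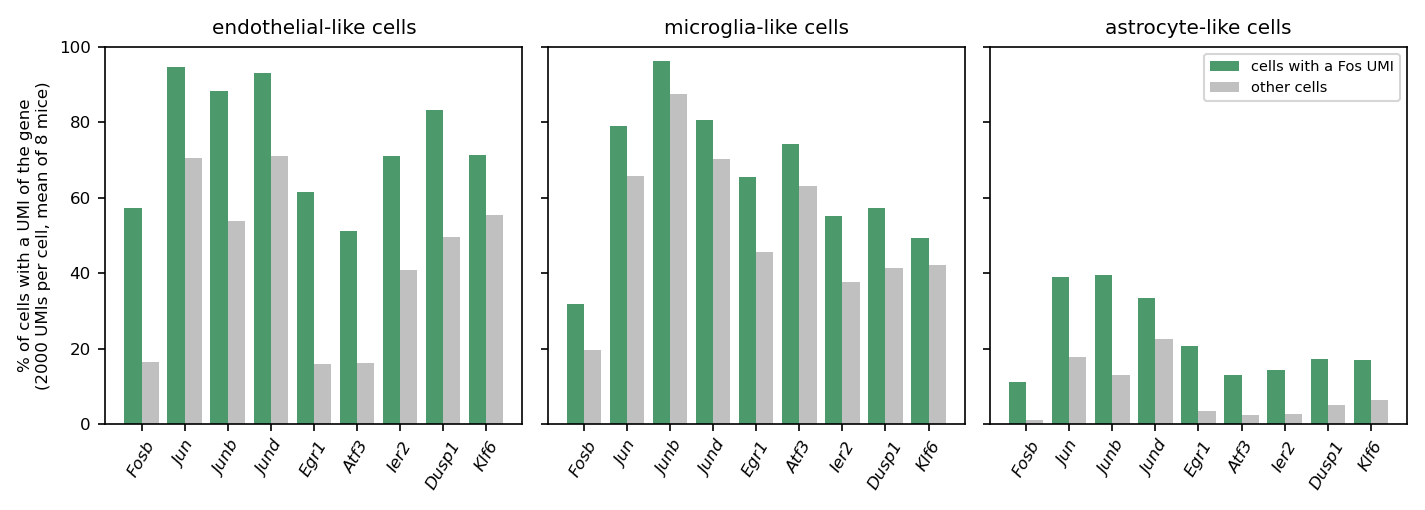
Share of cells with a UMI of each of the 9 other members, in percent after thinning to 2000 UMIs per cell (mean of 8 mice), for cells with a Fos UMI (green) and other cells (grey) of 3 classes; bars start at 0. In endothelial-like cells Egr1 stands at 61.4% against 15.8%, in microglia-like cells at 65.5% against 45.6%. The astrocyte-like shares cannot be told apart from free RNA.

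Subclusters of a class, made without the members, differed in level. Among 9 microglia-like clusters the summed members ran from 6320 CPM in a cluster led by Cd5l, Apoc1 and Apoc4 (1225 cells) to 13754 CPM in one led by Csmd3 and Atp8a2 (2577 cells), and Egr1 from 267 to 1663 CPM in the same clusters. The dividing microglia-like cluster, led by Mki67 and Top2a, held 6822 CPM. Endothelial-like clusters lay close together (14066 to 15921 CPM). Among fibroblast-like clusters 4 lay between 8260 and 12186 CPM, and a cluster of 139 cells led by Lum and Mdk held 3332 CPM, with a median of 3877 UMIs per cell. Of 4 astrocyte-like clusters 1, led by Myoc, Fabp7 and A2m (270 cells), held 3196 CPM, against 525 to 1071 CPM in the others. Cells were pooled over mice here, and the clusters differ in depth, so these are descriptions.

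Mitochondrial share, and in some classes depth, moved with the members inside a class. Microglia-like cells above their median mitochondrial share held 0.818 times the summed members of those below it (higher in 0 of 8 mice), endothelial-like cells 0.903 times (0 of 8), fibroblast-like cells 0.852 times (1 of 8) and astrocyte-like cells 0.461 times (0 of 8). Split at the median UMI count, the deeper microglia-like cells held 0.763 times the level of the shallower ones (higher in 0 of 8 mice). Deeper astrocyte-like cells held 2.25 times (8 of 8), deeper endothelial-like cells 1.09 times (6 of 8) and deeper fibroblast-like cells 1.05 times (4 of 8). The part of depth and mitochondrial share was looked at in these classes only. What they add to the class levels was not tested.

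Other genes known to respond to stimuli or handling were read from 3 lists drawn from textbook knowledge, but chosen with earlier results of these data known. The 40 other immediate early genes summed to 18474 CPM in smooth muscle-like, 15759 CPM in neutrophil-like, 13705 CPM in endothelial-like and 12760 CPM in microglia-like cells, and to 1712 CPM in neuron-like cells. The log2 sums of this list and of the members had r = 0.858 over the 15 classes. The 14 heat shock and dissociation genes, most of which encode chaperones, were highest in endothelial-like cells (11002 CPM) and lowest in neutrophil-like cells (3241 CPM), with r = 0.707. The 12 microglia genes known to rise ex vivo, cytokines such as Ccl3, Ccl4 and Il1b among them, were highest in microglia-like cells (13721 CPM) and lowest in pericyte-like cells (475 CPM), with r = 0.129. For the median mitochondrial percent of the cells of a class, averaged over mice, r was -0.159, and for the median UMI count, averaged likewise, 0.197. These are descriptions over 15 classes that share libraries.

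The study asked what fibrinogen depletion changes in the lesion, and for these genes that is the comparison of 4 ancrod with 4 saline mice in each class. No member passed the threshold: 0 of 150 tests of gene and class had an adjusted p below 0.05 by edgeR's quasi-likelihood test fitted over all genes, against 64 of 144652 tests over all genes. An unadjusted p below 0.05 was reached by 30 of the 150 (20%, 10 higher and 20 lower in ancrod), against 6.26% of all tests, and DESeq2 called 7 (4.67%, against 0.244% of all tests). The fit has no batch term, and with one 3 tests were called, all in pericyte-like cells (adjusted p = 0.0204 for Egr1, 0.0339 for Ier2 and 0.0349 for Junb, edgeR), against 0.0738% of all tests. Fitted differences below are log2 ratios of ancrod to saline with their SE, and the adjusted p is over all genes of the class. The 10 members were read in the same cells of the same 8 mice and are not independent. A mouse that is high or low can move several of them, so counts of members are not counts of separate results. The labels do not say whether the 8 mice were handled in an order that mixes the groups. Within a pool of cells, more cells of a state and more RNA per cell cannot be told apart. How many of all genes had groups without overlap was not counted, so members without overlap have no such share beside them.

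**Figure D4:**
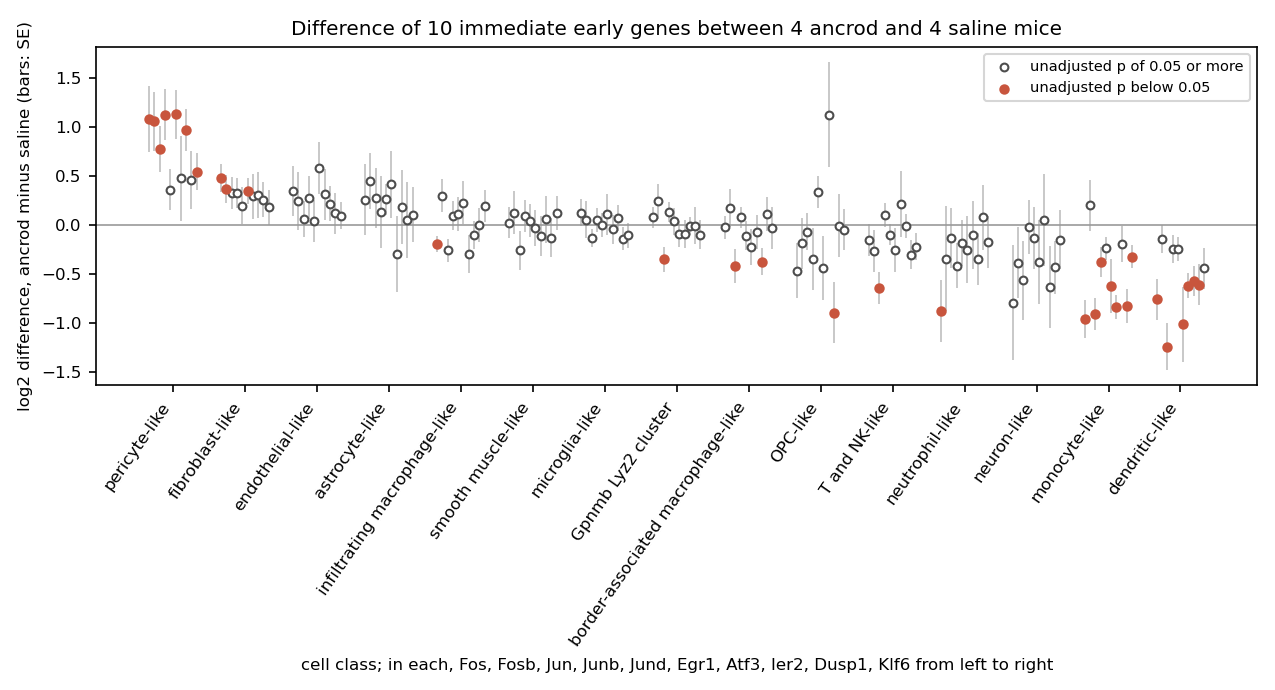
Fitted log2 difference of each gene between 4 ancrod and 4 saline mice in each of the 15 classes; points are estimates, bars their SE, and filled points have an unadjusted p below 0.05. All 10 points of pericyte-like cells lie above 0 (up to 1.13), all 10 of dendritic-like cells lie below 0 (down to -1.24), and those of microglia-like cells lie between -0.14 and 0.13.

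Microglia-like cells gave the narrowest differences, 5 above and 5 below 0 with a median of 0.03 (-0.14 to 0.13), and none of the 10 reached an unadjusted p below 0.05, against 4.45% of all genes in that class and 0% by the adjusted p. For Fos, saline mice had 1207, 1207, 1186 and 1046 CPM and ancrod mice 1546, 1027, 1059 and 1302 CPM, so the groups overlapped. For Atf3 the values were 1083, 1261, 1328 and 845 CPM in saline and 1010, 1026, 1029 and 1220 CPM in ancrod mice.

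Pericyte-like cells, the mural cells of capillaries, gave the widest positive differences. The class had a median of 5506 UMIs per cell. A deeper cluster of 643 cells (median 26403 UMIs, 19.1% scored as doublets) was led by the pericyte genes Rgs5, Vtn and Abcc9. It scored highest for endothelial markers, stayed unnamed and is not part of the class, so its members were not tested. All 10 members had positive estimates with a median of 0.88, against -0.01 for all 9362 genes tested, and 7 reached an unadjusted p below 0.05, against 12.1% of all genes. None had an adjusted p below 0.05, against 0.673% of all genes. Egr1 read 397, 471, 406 and 181 CPM in the saline mice and 1050, 609, 658 and 732 CPM in the ancrod mice. The groups did not overlap, and the log2 difference was 1.13 ± 0.25 (adjusted p = 0.0530, edgeR). Junb read 431, 689, 720 and 323 CPM in saline and 1677, 847, 891 and 1095 CPM in ancrod mice (1.13 ± 0.26, adjusted p = 0.0615, edgeR). Ancrod 1 was the highest and saline 4 the lowest mouse for both genes, and likewise for Ier2 and Fos below. Ier2 read 161, 210, 172 and 103 CPM in saline and 408, 213, 297 and 301 CPM in ancrod mice (0.98 ± 0.21, adjusted p = 0.0536, edgeR). For Fos the saline mice had 632, 816, 846 and 197 CPM and the ancrod mice 1749, 979, 922 and 1398 CPM, with a difference of 1.09 ± 0.34 (adjusted p = 0.168, edgeR). Free RNA averaged 1130 CPM of Fos, and the share of cells with Fos was within the bound for free RNA in saline 1 and saline 4. The part of free RNA in this difference was not tested. Fosb, Jun and Klf6 differed by 1.06, 0.78 and 0.55, and the values of Jun, Jund, Atf3, Dusp1 and Klf6 overlapped between the groups. Saline 4 lies in batch 2, and within batch 1 the means of 3 saline and 3 ancrod mice were 425 and 772 CPM for Egr1, 614 and 1138 CPM for Junb, 765 and 1217 CPM for Fos and 181 and 306 CPM for Ier2.

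The adjusted p of pericyte-like Egr1 ranged from 0.00627 to 0.167 over 19 alternatives, 8 of which called it, and Junb and Ier2 were each called under 6 of 19. Without ancrod 2 the adjusted p was 0.0310 for Egr1, 0.0319 for Junb and 0.0153 for Ier2, and without saline 4 it was 0.0450 for Egr1 (edgeR). Among the 40 other immediate early genes, 33 were tested in pericyte-like cells and 4 passed the threshold, all higher in ancrod mice. They were Gadd45b (log2 difference 1.47 ± 0.19, adjusted p = 0.00466, edgeR), a growth arrest and stress gene, Csrnp1 (1.95 ± 0.30, 0.00809), the MAP kinase phosphatase Dusp2 (2.57 ± 0.39, 0.00809) and the FOS family gene Fosl2 (1.79 ± 0.29, 0.0142). Gadd45b rose from 106, 143, 210 and 101 CPM in saline to 421, 340, 382 and 331 CPM in ancrod mice without overlap. Dusp2 and Csrnp1 were low in saline mice (means 6.22 and 15.3 CPM). They were the only genes of the list called in any of the 15 classes, 4 of 509 tests.

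Other measures moved with the pericyte-like difference. The 7 fibroblast markers, of which Dpt was at 0, summed to 672 to 924 CPM in saline and 1046 to 1545 CPM in ancrod mice. The 6 infiltrating macrophage markers summed to 173 to 210 and 299 to 481 CPM, and neither list overlapped between the groups. Only 2 of these 6 genes reached 10 CPM. In fibroblast-like cells the same list averaged 2898 CPM in saline and 2766 CPM in ancrod mice, so its sum does not show macrophages. The 7 microglia markers overlapped (210 to 352 and 212 to 329 CPM). The 5 smooth muscle markers overlapped (946 to 1540 and 1089 to 3325 CPM), as did the 6 pericyte markers (26174 to 30656 and 24931 to 28163 CPM). The OPC list and the ependymal list were lower in ancrod without overlap (means 549 and 440 CPM, and 505 and 419 CPM). Only 1 of the 6 OPC genes and 1 of the 5 ependymal genes reached 10 CPM in this class. Each of these sums is therefore mostly that of 1 gene and does not show the cell type. Heat shock and dissociation genes had 14 of 14 positive estimates with a median of 0.25, and 0 were called. The median UMI count of the class was 5040 to 5411 in saline and 4697 to 7246 in ancrod mice, and the median mitochondrial share 3.50% to 4.43% and 4.15% to 5.07%. The class had 105 to 222 cells per mouse. The part of these measures in the difference was not tested.

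In monocyte-like cells the members differed the other way. Of the 10 estimates 9 were negative with a median of -0.50 (0.01 for all genes), and 7 had an unadjusted p below 0.05, against 4.1% of all genes, while none passed the adjusted threshold (0% of all genes). Atf3 read 856, 916, 788 and 795 CPM in the saline mice and 403, 436, 573 and 519 CPM in the ancrod mice. The log2 difference was -0.84 ± 0.12 (adjusted p = 0.0722, edgeR), with a range of 2.68e-06 to 0.363 over 19 alternatives, 4 of which called it, among them leaving out ancrod 3 (0.0483). Jun read 491, 489, 428 and 468 CPM in saline and 222, 259, 353 and 184 CPM in ancrod mice (-0.91 ± 0.17, adjusted p = 0.395, edgeR), with a range of 0.00123 to 0.956 over 19 alternatives, 3 of which called it (DESeq2, no filter on low counts, and leaving out ancrod 3 with 0.0483). Fos (-0.96 ± 0.19) and Dusp1 (-0.83 ± 0.17) were also lower in every ancrod mouse than in any saline mouse, at 773 to 1550 against 490 to 608 CPM and 595 to 914 against 331 to 550 CPM. Their adjusted p was 0.439 for both (edgeR), and 3 of 19 alternatives called each, with ranges of 0.00597 to 0.956 for Fos and 0.0173 to 0.956 for Dusp1. Fosb was the exception, with 78.1 to 141 CPM in saline and 72.4 to 153 CPM in ancrod mice. Within batch 1 the means of 3 saline and 3 ancrod mice were 853 and 471 CPM for Atf3 and 469 and 278 CPM for Jun. All 13 heat shock and dissociation genes tested were negative (median -0.32, 7 with an unadjusted p below 0.05) and so were all 12 microglia genes known to rise ex vivo (median -0.39), with 0 called.

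**Figure D5:**
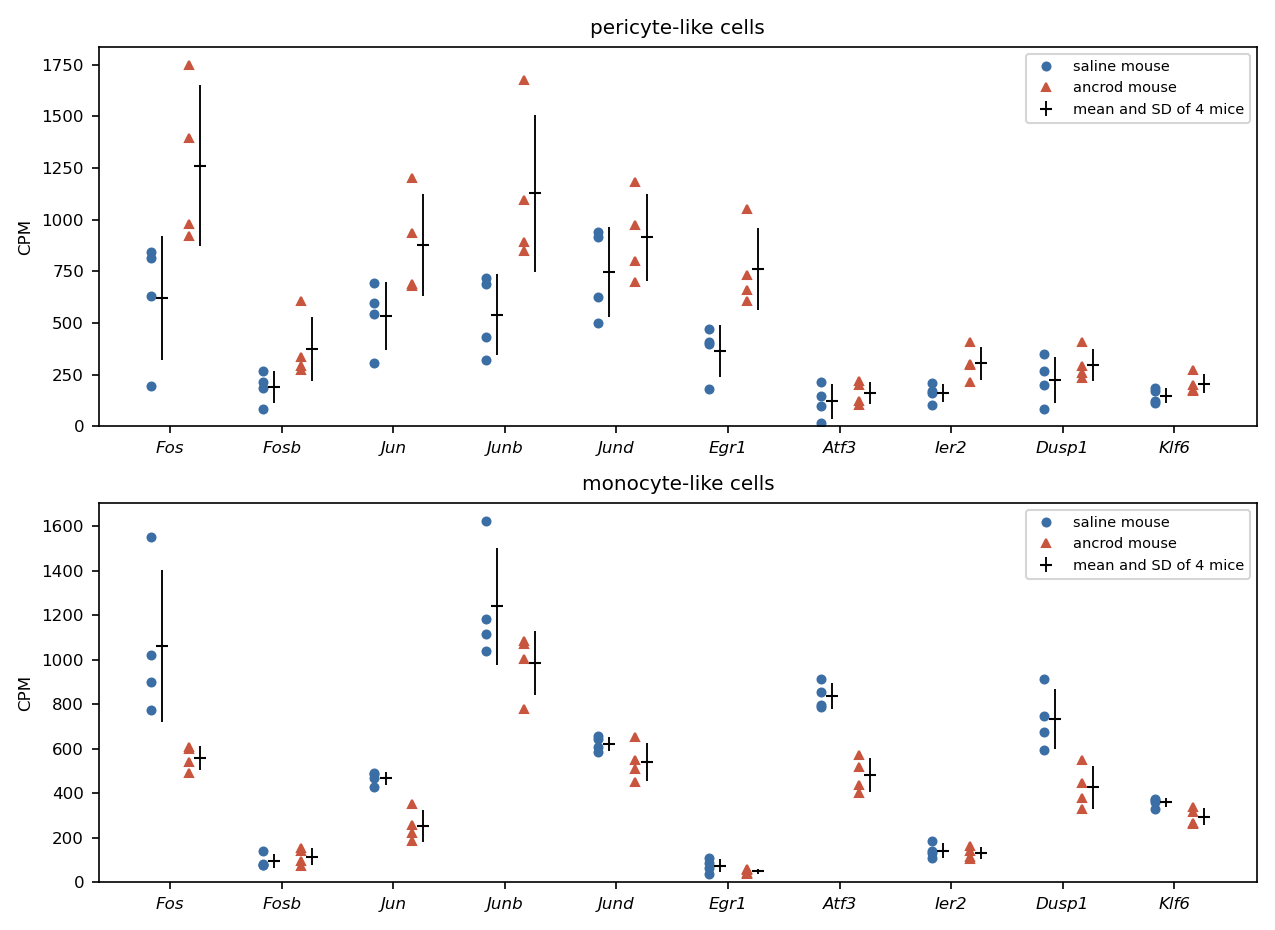
Level of the 10 genes in pericyte-like (top) and monocyte-like cells (bottom), in CPM; each point is 1 mouse (circles saline, triangles ancrod), with the mean and SD of 4 mice beside them. In pericyte-like cells the 2 groups are apart for Fos, Fosb, Junb, Egr1 and Ier2. In monocyte-like cells they are apart for Fos, Jun, Atf3 and Dusp1, with the ancrod mice lower. No difference passed the adjusted threshold, and how many of all genes are apart in this way was not counted.

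Beside this difference in monocyte-like cells the 6 astrocyte markers summed to 23.6 to 52.5 CPM in saline and 118 to 332 CPM in ancrod mice without overlap, against 5090 and 4442 CPM for the means of the 6 monocyte markers. Neutrophil markers reached 1304 CPM in 1 ancrod mouse (155 to 1304 against 176 to 337 CPM), and microglia markers overlapped (665 to 1220 and 558 to 740 CPM). The class had 25 to 273 cells per mouse. Their part in the result was not tested.

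Dendritic-like cells had 10 of 10 negative estimates (median -0.59), 6 with an unadjusted p below 0.05 against 6.4% of all genes, and 0 called (0% of all genes). Jun read 693, 611, 381 and 729 CPM in saline and 203, 196, 386 and 250 CPM in ancrod mice (-1.24 ± 0.24, adjusted p = 0.519, edgeR), with saline 3 inside the range of the ancrod mice. Of 19 alternatives 2 called it, DESeq2 (adjusted p = 0.00064) and no filter on low counts (0.0275, edgeR). Atf3 read 673, 681, 649 and 765 CPM in saline and 492, 353, 528 and 451 CPM in ancrod mice, without overlap (-0.62 ± 0.13, adjusted p = 0.519, edgeR), and 1 of 19 alternatives called it (DESeq2, adjusted p = 0.00798). Of 14 heat shock and dissociation genes 13 were negative. The class had 39 to 152 cells per mouse.

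Fibroblast-like cells, the cells the study follows into the scar, had 10 of 10 positive estimates (median 0.32), 3 of them with an unadjusted p below 0.05 against 12.1% of all genes, and 0 called against 0.0076% of all genes. Fos read 1617, 1871, 1635 and 1203 CPM in saline and 2396, 1936, 2383 and 2120 CPM in ancrod mice (0.48 ± 0.14, adjusted p = 0.351, edgeR). Fosb (0.37 ± 0.14) and Egr1 (0.35 ± 0.13) also did not overlap between the groups. Of 39 other immediate early genes tested in them 36 were positive and 14 had an unadjusted p below 0.05, with 0 called, and the heat shock list was positive in 14 of 14. The class held 53 cells in saline 3 and 698 in ancrod 3. Beside it the 6 neuron markers, at most 14.99 CPM, were higher in ancrod without overlap (6.55 to 8.91 and 9.55 to 14.99 CPM), and their part in the difference was not tested.

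Endothelial-like cells had 10 positive estimates of 10 (median 0.23), none with an unadjusted p below 0.05 against 9.86% of all genes and 0% by the adjusted p. For Egr1 the values were 468, 1133, 1078 and 701 CPM in saline and 1454, 967, 1233 and 1415 CPM in ancrod mice, with saline 1 and saline 4 low. The median UMI count of the class was 7372 to 9807 in saline and 11845 to 16862 in ancrod mice, without overlap, and the 6 astrocyte markers summed to 115 to 176 and 180 to 264 CPM, also without overlap, as were the OPC and ependymal lists at lower levels (at most 7.21 CPM). Their part in these values was not tested. Astrocyte-like, neuron-like and smooth muscle-like cells likewise had no member with an unadjusted p below 0.05 (4.19%, 4.03% and 4.75% of all genes). In the other classes single members reached it. Fos was lower in ancrod in neutrophil-like (-0.88, 3.05% of all genes) and infiltrating macrophage-like cells (-0.19, 3.7%), and Jun was lower in T and NK-like (-0.64, 3.68%), border-associated macrophage-like (-0.42, 6.94%) and Gpnmb Lyz2 cluster cells (-0.35, 3.36%). Ier2 was lower in border-associated macrophage-like (-0.37) and OPC-like cells (-0.89, 7.18%). The Fos difference of infiltrating macrophage-like cells changed sign at Leiden resolution 1, and the Ier2 difference of OPC-like cells with doublets removed. By the adjusted p 0% of all genes were called in these classes.

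Whether a class differed from microglia-like cells in its ancrod difference was tested directly, in 1 model with the mouse as a block, after the single classes had been seen. None of 140 interaction tests passed the adjusted threshold (edgeR), 27 had an unadjusted p below 0.05 against 6.16% of all genes over the 14 classes, and 0.189% of all genes were called for pericyte-like, 0.0176% for astrocyte-like and 0% for the other 12 classes. In pericyte-like cells 9 of the 10 members had an unadjusted p below 0.05 and exceeded the microglia-like difference, against 9.02% of all genes at that p. The excess was 1.11 ± 0.28 for Egr1, 1.10 ± 0.32 for Fos and 1.09 ± 0.22 for Junb (adjusted p = 0.166, 0.256 and 0.0737, edgeR). In monocyte-like cells 5 and in dendritic-like cells 5 had an unadjusted p below 0.05 and lay below it, against 5.74% and 6.57% of all genes, among them Fos (-1.03 ± 0.23 and -0.88 ± 0.24). With cells thinned to 2000 UMIs 5 of 130 interaction tests passed the threshold (3.85%), against 15 of 56817 over all genes (0.0264%). Classes other than microglia-like cells were not tested against each other.

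Of the named genes of the 3 lists, chosen by the smallest p in the 3 largest classes, none passed the threshold. In microglia-like cells Myc read 40.7 CPM in saline and 32.4 CPM in ancrod mice without overlap (-0.30 ± 0.10, adjusted p = 0.935, edgeR), Per1 72.0 and 62.2 CPM, the heat shock gene Hspa1b 316 and 189 CPM, Hsp90aa1 468 and 379 CPM, Rgs1 433 and 369 CPM and Il1b 431 and 516 CPM. In endothelial-like cells Dusp2 read 61.2 and 114 CPM without overlap (0.89 ± 0.34), Fosl1 3.26 and 6.28 CPM, Hspa5 267 and 317 CPM, Hspb1 1431 and 1220 CPM, Atf4 129 and 160 CPM and Nfkbid 23.0 and 32.8 CPM. In astrocyte-like cells Klf4 read 8.57 and 19.7 CPM, Ptgs2 8.34 and 16.2 CPM, Dnajb1 14.1 and 18.1 CPM, Il1b 1.82 and 3.64 CPM and Tnf 2.15 and 3.75 CPM. Over all 15 classes 88 of 509 tests of other immediate early genes had an unadjusted p below 0.05 (17.3%, 52 higher, 4 called), 32 of 203 of heat shock genes (15.8%, 27 lower, 0 called) and 19 of 165 of the ex vivo list (11.5%, 0 called). Over all genes 6.26% of 144652 tests had such a p and 64 were called.

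Batch was compared in the 5 classes with at least 100 cells in every mouse, with 6 mice of batch 1 and 2 of batch 2 and treatment as a term. None of 50 tests passed the adjusted threshold (edgeR), against 0% of all genes in microglia-like, endothelial-like and astrocyte-like cells, 0.0177% in the Gpnmb Lyz2 cluster and 0.0999% in pericyte-like cells. An unadjusted p below 0.05 was reached by 10, all lower in batch 2. Of these 8 were in the Gpnmb Lyz2 cluster, against 7.78% of all genes there, and 2 in pericyte-like cells (8.11%), with none in microglia-like (5.78%), endothelial-like (11.8%) or astrocyte-like cells (4.46%). In the Gpnmb Lyz2 cluster, Klf6 read 401, 396, 373, 370, 397 and 310 CPM in the mice of batch 1 and 238 and 271 CPM in those of batch 2 (-0.54 ± 0.10, adjusted p = 0.221, edgeR). Dusp1 read 628, 557, 629, 722, 499 and 660 CPM in batch 1 and 404 and 370 CPM in batch 2 (-0.66 ± 0.14, adjusted p = 0.235, edgeR). Both genes were lower in each mouse of batch 2 than in any of batch 1. In pericyte-like cells Fosb (-0.72) and Egr1 (-0.59) were lower in batch 2 with overlap. The heat shock list had 14 of 14 negative estimates in microglia-like, endothelial-like and Gpnmb Lyz2 cluster cells, 10 of 14 in astrocyte-like and 12 of 14 in pericyte-like cells. Of its 70 tests 18 were lower and 1 higher at an unadjusted p below 0.05, none of them called. Of 184 tests of other immediate early genes 34 had such a p (18.5%, 30 lower), against 7.57% of all tests. In that list 1 gene was called, lower in batch 2 in pericyte-like cells (edgeR). The label joins injury and sequencing in 1 batch, and these cannot be told apart.

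Whether a member was high or low in the same mice in different classes was asked of microglia-like and endothelial-like cells, the 2 largest classes, over the 8 mice. No member passed the adjusted threshold (8330 genes, 0% called, 18% with an unadjusted p below 0.05). Junb came nearest, with r = 0.774 (exact permutation p = 0.0174, adjusted p = 0.204) and Spearman rho = 0.857 (exact permutation p = 0.0107). Without ancrod 4 and saline 4, the 2 mice farthest from the median in microglia-like cells and the whole of batch 2, r was 0.700 (exact permutation p = 0.0764). The other 9 members had r between 0.05 (Fosb) and 0.53 (Atf3), and the median over all genes was 0.375. Egr1 had r = 0.275 over 8 mice and -0.324 within batch 1, and Klf6 0.255 and -0.102. Without the 2 mice farthest from the median of the gene in microglia-like cells, r of these 9 members ran from -0.405 (Klf6) to 0.540 (Fosb).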

How the data were processed

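The authors deposited 1 matrix of UMI counts per library, made from 10x 3′ v3.1 libraries of dissociated lesion tissue with Cell Ranger 7.1.0 on GRCm39 per the labels. Myelin was removed with beads per the methods. The matrices hold all droplets, so cells were taken as droplets with at least 2000 UMIs and under 20% mitochondrial UMIs, and 97861434 to 142139441 UMIs per library set the counting precision. Each library is 1 mouse and the mouse is the replicate. The labels give females only, while the methods name both sexes.

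Cells were clustered on 3000 variable genes, 30 principal components and 20 neighbours (Leiden resolution 2, leidenalg 0.10.2), leaving out the 76 member and list genes. Clusters were named from fixed markers, with thresholds for naming set after the clusters were seen. In all 6370 cells stayed unnamed, among them a cluster of 643 cells led by pericyte genes. Doublets were marked at 0.8% per 1000 cells (2144 cells) and kept, except in 1 alternative. UMIs were summed per mouse and class. Ancrod and batch differences were tested with edgeR 4.0.16 in R 4.3.3 (filterByExpr, TMM, quasi-likelihood test, Benjamini-Hochberg over all genes of a class, threshold 0.05), with DESeq2 1.42.0 as an alternative. The edgeR step was tested on simulated data. Class levels were compared by two-sided exact sign-flip tests of log2(CPM + 1) within mice (numpy 2.4.6), adjusted over the class pairs of a gene. The comparisons with microglia-like cells were added after the data were seen. All 10 members are named in every class, and of each list the 2 genes with the smallest p in each of the 3 largest classes, with every list gene called elsewhere; 1 gene so chosen is not reported here. The members and lists were chosen with earlier results of these data known. Alternatives covered normalization, filters on genes and cells, doublets, clustering, free RNA, depth, covariates and leaving out each mouse.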

Additional observations from a re-analysis of the deposited data

Results flagged for a closer look

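In each class and group of 4 mice a mouse was looked for whose level stood apart from the other 3 (gap over range above Dixon's critical value). Of 300 groups 22 held such a mouse (7.33%), where chance gives about 1 in 20. All values are CPM of 1 gene in 1 class.

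In myeloid classes, Fos of microglia-like cells was 1046 in saline 4, against 1186 to 1207 in the other saline mice, and Atf3 was 1220 in ancrod 4 against 1010 to 1029. Jun of the Gpnmb Lyz2 cluster was 639 in saline 4 against 919 to 964. In infiltrating macrophage-like cells Atf3 was 1079 in saline 3 (others 578 to 655), while ancrod 1 had Fos at 956 (845 to 858) and Fosb at 271 (172 to 183). Fosb of monocyte-like cells was 141 in saline 4 (78.1 to 83.1), and Egr1 of border-associated macrophage-like cells was 302 in saline 4 (556 to 596). Klf6 of neutrophil-like cells was 484 in ancrod 2 (239 to 263), and Jund of dendritic-like cells was 496 in ancrod 2 (694 to 721).

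In T and NK-like cells Junb was 1601 in saline 3 (1327 to 1349) and Klf6 was 334 in ancrod 4 (301 to 305). In neuron-like cells Jun was 444 in saline 1 (211 to 249) and Atf3 144 in saline 3 (24.2 to 42.4), and ancrod 1 had Fos at 416 (94.2 to 145), Jun at 370 (111 to 139) and Ier2 at 119 (41.9 to 47.1). In OPC-like cells Egr1 was 117 in ancrod 2 (391 to 408) and Ier2 was 196 in ancrod 3 (80.3 to 89.0). In smooth muscle-like cells Dusp1 was 1286 in saline 1 (881 to 930), and ancrod 4 had Fos at 5394 (3541 to 3767) and Dusp1 at 1265 (758 to 802).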

How the results depend on the processing

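No member was called between ancrod and saline, but alternatives called some of the 150 tests: 7 with DESeq2 (4.67%, against 0.244% of all tests), 9 with no filter on low counts (6% against 0.104%), 3 with batch as a term (2% against 0.0738%), 4 of 140 with cells thinned to 2000 UMIs (2.86% against 0.0639%), 3 with free RNA subtracted (2% against 0.0674%), 1 with doublets removed (0.667% against 0.0267%), and 0 to 3 without 1 mouse (3 without ancrod 2, 2 without ancrod 3 and 1 without saline 4, against 0.129%, 0.0179% and 0.0447% of all tests). With the replicate number as a block 4 were called (2.67% against 0.119%), among them pericyte-like Egr1 (adjusted p = 0.0150, edgeR), yet the numbers do not pair the mice: same-numbered mice deviated with correlations of -0.27 to -0.03 in microglia-like, 0.03 to 0.39 in endothelial-like and -0.27 to 0.13 in astrocyte-like cells, and not every mouse correlated best with its own number. Between batches the count of 0 became 4 with DESeq2 (8% against 0.484% of all tests), 4 with no filter (8% against 0.314%) and 0 to 1 without 1 mouse (1 without ancrod 2, against 0.0182%); without a replicate 4 the lone mouse of batch 2 is assumed to vary like the others. The 9 neighbouring steps became 14 with under 10% mitochondrial UMIs, 16 at Leiden resolution 1, 14 with thinned cells and 0 to 5 without 1 mouse (5 without ancrod 4, 0 without any other). The interaction count of 0 became 5 of 130 with thinned cells (3.85% against 0.0264% of all tests) and 0 to 2 without 1 mouse (2 without saline 3 and 1 without ancrod 4, against 0.0124% and 0.0202%). The 123 pairs told apart from microglia-like cells ranged from 115 to 123, and the relation over mice stayed at 0. Of 749 recomputed values of the 40 ancrod and batch results with an unadjusted p below 0.05, 700 kept their direction and side of the threshold, 46 passed it and 3 reversed: Fos in infiltrating macrophage-like cells at Leiden resolution 1 (0.16), Ier2 in OPC-like cells with doublets removed (0.39) and batch for Ier2 in the Gpnmb Lyz2 cluster with thinned cells (0.18). Over all 150 ancrod fits 180 of 2840 values under alternatives had the opposite sign, in 65 fits, and over all 50 batch fits 78 of 900, in 36 fits. The cause was not tested. Of the 15 classes compared, depth was lowest in neutrophil-like cells, with 12 cells in saline 1 and a median of 4868 UMIs per cell.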
